A study of Homo sapiens with 24 samples.

Results

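The p53 target genes are genes that the transcription factor p53 is known to switch on. A fixed list of 33 gene symbols was taken, each matched by symbol to a table of 25277 symbols, and each of the 33 occurred on 1 line of it. The levels come from RNA-seq of 2 human prostate cancer sublines, 22Rv1DR and DU145DR, in which siRNA was used against POM121, a nucleoporin of the nuclear membrane. In each subline 2 libraries had received siPOM121 construct 1 (libraries 4B and 5B of 22Rv1DR, 1B and 2B of DU145DR), 2 libraries had received siPOM121 construct 2 (4C and 5C, 1C and 2C), and 2 were controls (4A and 5A, 1A and 2A). The sublines were derived from 22Rv1 and DU145 cells and are called aggressive in the labels, and published work knows them as docetaxel-resistant. What the control cells received, how long after transfection RNA was taken, and whether the 2 libraries of a group are separate cultures are not in the labels. The p-values therefore rest on differences between libraries that may be technical. Both constructs are siRNAs, which lower a transcript for a time, although the series title speaks of a knockout.

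p53 is held low in unstressed cells by MDM2, which marks it for degradation, and MDM4, which blocks its activity. After DNA damage or other stress p53 escapes this hold and raises genes that slow division, repair DNA, start apoptosis or change metabolism, together with genes such as MDM2 that switch it off again. Many of these genes also answer to other factors, among them FOXO proteins and the stress factor ATF4.

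The promoters of members are shown because p53 acts through DNA: its site is a pair of half-sites, each with a 4-letter core, CATG or a variant with A or T at either middle position. RefSeq start sites of build GRCh38.p14 gave 41 windows, the 250 bases before each start, for 27 of the 33 members. RRM2B, TP53INP1, TNFRSF10A, GADD45A, PHLDA3 and TNFRSF10B had none. The p53 half-site consensus, which reads as a half-site on either strand, was found in windows of 6 members, or 22.2% of those matched, against 6.80% of the 27305 genes with windows. Each is printed 5′ to 3′ on the strand of its gene, with the half-site in capitals and 10 bases on either side.
PLK2, minus strand, chr5:58460199-58460228: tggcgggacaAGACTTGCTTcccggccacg
SESN1, minus strand, chr6:109009018-109009047: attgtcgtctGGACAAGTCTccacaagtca
FAS, plus strand, chr10:88991299-88991328: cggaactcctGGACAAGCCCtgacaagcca
EI24, plus strand, chr11:125569457-125569486: cgtgcggcccGGGCATGCCCagtgcgggcg
AEN, plus strand, chr15:88621296-88621325: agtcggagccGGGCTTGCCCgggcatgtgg
FDXR, minus strand, chr17:74872986-74873015: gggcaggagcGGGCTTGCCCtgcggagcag

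The half-sites began between 10 bases (EI24) and 132 bases (PLK2) before the start. In SESN1, FAS and AEN another core stood within the 10 bases that follow. A pair of complete half-sites with 0 to 13 bases between them was in no member window and in 0.026% of all windows. The core alone is common, at 87.8% of member windows and 92.8% of all 35116 windows. A match is a description of the letters and not of binding, and the responses of these 6 genes went in both directions below. The first 200 bases of a window of BTG2, a member that rose in both lines, and of the third of 4 MDM2 start sites, a gene called in neither, are set side by side with their cores in capitals.
BTG2, plus strand, chr1:203305269-203305468: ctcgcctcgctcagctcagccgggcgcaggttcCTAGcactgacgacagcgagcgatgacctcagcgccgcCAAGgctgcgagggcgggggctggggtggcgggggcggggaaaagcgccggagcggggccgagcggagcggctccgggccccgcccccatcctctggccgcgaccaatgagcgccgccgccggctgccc
MDM2, plus strand, chr12:68808767-68808966: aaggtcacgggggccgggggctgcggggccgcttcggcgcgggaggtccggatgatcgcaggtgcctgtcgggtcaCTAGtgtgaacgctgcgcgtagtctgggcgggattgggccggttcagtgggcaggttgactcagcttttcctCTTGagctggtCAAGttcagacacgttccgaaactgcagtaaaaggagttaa
BTG2 had 2 cores in this stretch and MDM2 had 3. Neither gene had, in any window, a half-site that matches the consensus at every letter. Half-sites with a mismatch were not searched for, so their absence is not shown.

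Levels are FPKM, fragments scaled by transcript length and by the size of the library, and the table lists anything at or under 1 FPKM as 0. Read depth is unknown, and 12361 to 12569 symbols lay above that floor per sample in 22Rv1DR and 11884 to 12126 in DU145DR. POM121, the siRNA target, read 7.68 and 7.81 FPKM with construct 1 and 6.73 and 7.43 FPKM with construct 2, against 38.5 and 37.8 FPKM in the controls of 22Rv1DR (log2 fold change −2.37 ± 0.048, adjusted p = 9.48e-09; errors of fold changes are SE, with 2 libraries per construct or control). In DU145DR it read 13.4 and 13.5 FPKM with construct 1 and 12.4 and 13.2 FPKM with construct 2, against 21.6 and 21.3 FPKM in the controls (log2 fold change −0.71 ± 0.048, adjusted p = 5.66e-05), a smaller fold change. Its near-identical paralog POM121C, which can share reads with it, fell in both lines (−2.58 ± 0.059 in 22Rv1DR and −0.71 ± 0.059 in DU145DR). The epithelial markers KRT8, KRT18 and EPCAM were above the floor in every library of both lines. CDH1, the other epithelial marker looked at, was above it in every 22Rv1DR library but not in every DU145DR library. Of 4 markers of androgen-responsive prostate cells, 4 were above the floor in every 22Rv1DR library and 1 in every DU145DR library. All 4 leukocyte and all 3 endothelial markers were at 0 everywhere, and of 4 fibroblast markers only LUM was above 0, in 22Rv1DR. The 2 construct 2 libraries of 22Rv1DR, 4C and 5C, differed from each other by a median of 0.17 on the log2 scale, against 0.048 to 0.064 within the other 5 groups. Lanes 1 and 2 carried every DU145DR library and 4A, and lanes 3 and 4 carried the remaining 5 libraries of 22Rv1DR, so cell line and lane pair cannot be told apart outside 4A. Of the 22Rv1DR controls, only 5A shared lanes with the siPOM121 libraries. Without 5A, treatment and lane pair cannot be told apart in that line. In bulk RNA, fewer cells of a type and less RNA per cell cannot be told apart.

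Changes of the members after siPOM121 were modest, and more members rose than fell. In 22Rv1DR 14 members rose and 6 fell, led upward by GADD45A and BTG2, growth-arrest genes, at about 0.83 on the log2 scale each. In DU145DR 10 rose and 4 fell, led upward by TP53INP1 (0.82) and BTG2 (0.74). No member changed 2-fold: the largest fold was 1.78 in 22Rv1DR and 1.77 in DU145DR. MDM2, the central brake on p53 and one of its best-known targets, was called in neither line.

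A member was called when its Benjamini-Hochberg adjusted p in limma, taken over the 13622 symbols tested and two-sided, was under 0.05; the effect is the mean of both constructs minus control. All 33 members passed the filter on low values, although GDF15 did so only through 22Rv1DR and was listed at 0 in every DU145DR library. The 14 members that rose in 22Rv1DR were 42.4% of the list, and 15.2% of all symbols rose. The 6 that fell were 18.2%, against 20.4% of all symbols. In DU145DR the 10 that rose were 30.3%, against 14.5% of all symbols, and the 4 that fell were 12.1%, against 9.37%. The share of members that rose was above the background in both lines, and the share that fell was close to it. The members were chosen with earlier results of these data known, so these shares describe the list and test nothing. That limit holds for the shares of the further lists below too. The median member moved by 0.057 in 22Rv1DR and 0.023 in DU145DR, where the median of all symbols moved by −0.016 and 0.00, so the middle of the list stayed near that of all genes. Members that were not called lay between −0.12 and 0.31 in 22Rv1DR and between −0.16 and 0.17 in DU145DR. Leaving out 1 control kept 1 control library in that line, and fewer of all symbols were called there than in the full fit. The number of members called depended on single controls too. In 22Rv1DR it was 12 in place of 20 without 5A, with 12 higher and 0 lower, so that all 6 falls lost their calls. In DU145DR it was 9 in place of 14 without 1A, with 7 higher and 2 lower.

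Across the lines, which have separate controls, 7 members rose in both: CCNG1, BTG2, FAS, PERP, TP53INP1, SESN1 and ZMAT3. They were 21.2% of the list, and 3.4% of all symbols rose in both lines. AEN alone fell in both (3.03%, against 4.23% of all symbols), and TNFRSF10B alone was called in opposite directions. The other calls were made in 1 line: 6 members rose and 5 fell in 22Rv1DR, and 3 rose and 2 fell in DU145DR. The 8 called in neither were MDM2, MDM4, PPM1D, PLK3, POLH, BBC3, PHLDA3 and TP53I3.

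**Figure D1:**
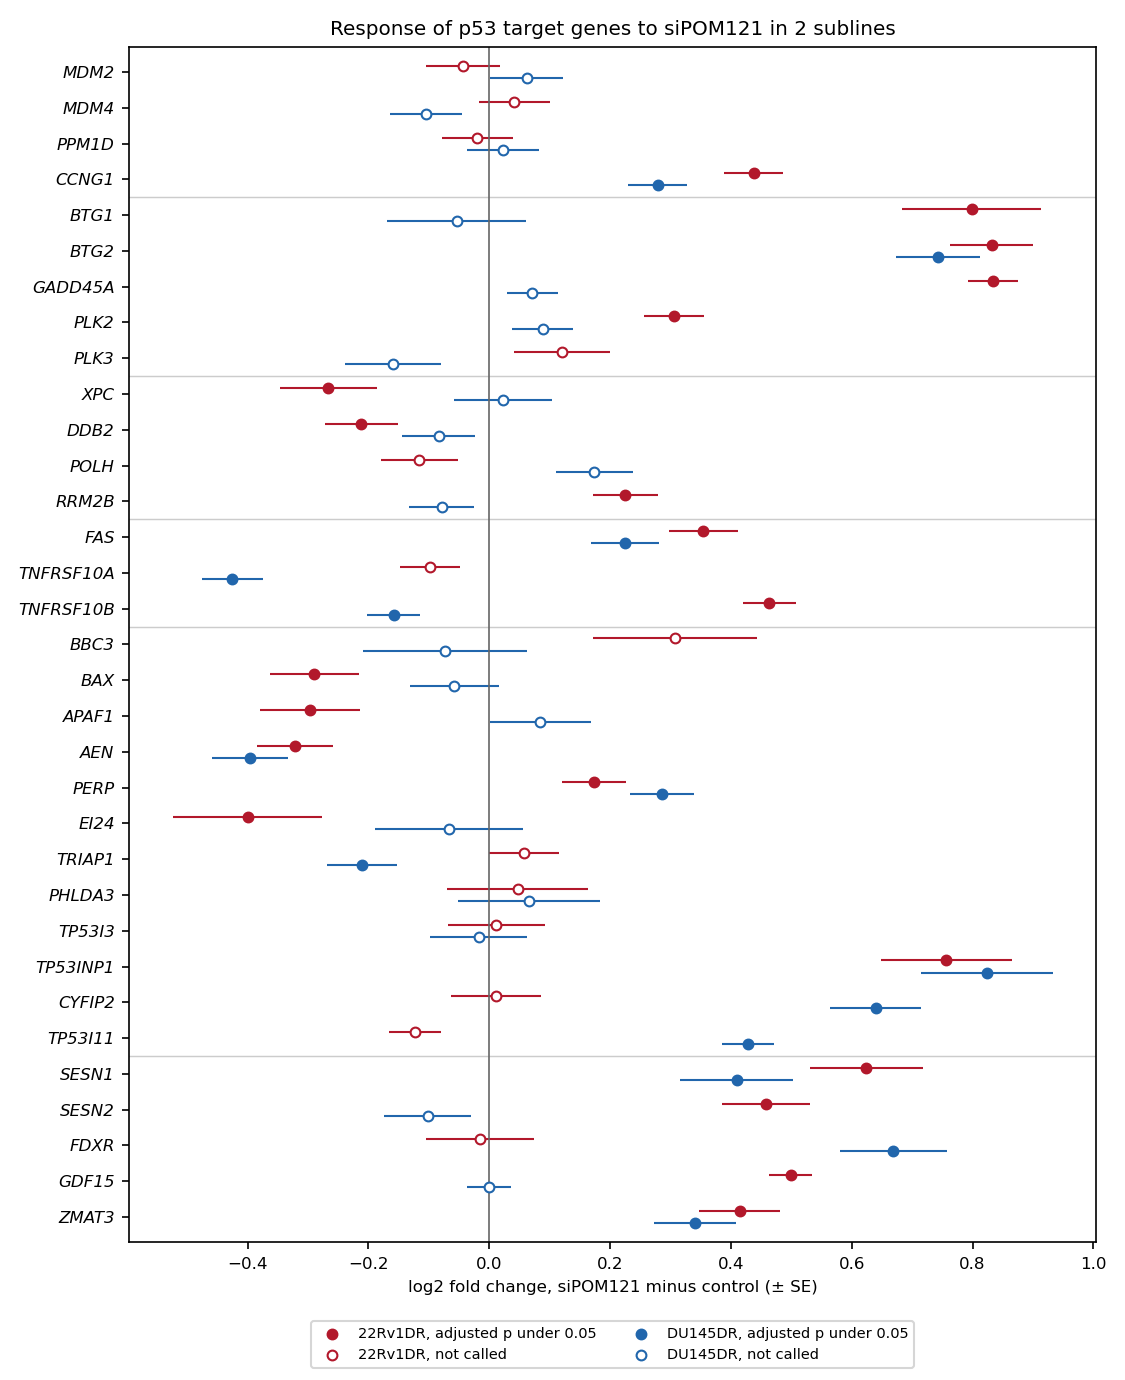
Log2 fold change of each p53 target gene (siPOM121 minus control, 4 libraries against 2, bars are SE) in 22Rv1DR (red) and DU145DR (blue), filled where adjusted p is under 0.05; rows are grouped by role. BTG2, TP53INP1 and CCNG1 lie to the right in both lines, FDXR, CYFIP2 and TP53I11 in DU145DR, and GADD45A, BTG1 and TNFRSF10B in 22Rv1DR; the DU145DR point of GDF15 stands at 0 because it was at the floor in every library.

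Of the 4 genes that restrain p53, only CCNG1 was called. MDM2, the ubiquitin ligase, read 24.01 and 24.8 FPKM with construct 1 and 22.6 and 26.5 FPKM with construct 2, against 25.7 and 24.7 FPKM in the controls of 22Rv1DR (log2 fold change −0.043 ± 0.061, adjusted p = 0.649). Its libraries overlapped there, with 5C highest and 4C lowest. In DU145DR MDM2 read 9.43 and 9.71 FPKM with construct 1 and 9.01 and 8.99 FPKM with construct 2, against 8.76 and 9.02 FPKM in the controls (log2 fold change 0.062 ± 0.061, adjusted p = 0.539), again with overlap. MDM4, its partner that masks the p53 activation domain, likewise overlapped in 22Rv1DR at 10.7 and 11.3 FPKM with construct 1 and 13.5 and 12.4 FPKM with construct 2, against 11.6 and 11.5 FPKM in the controls (log2 fold change 0.042 ± 0.059, adjusted p = 0.654). The DU145DR levels of MDM4 were 3.54 and 3.83 FPKM with construct 1 and 3.71 and 3.54 FPKM with construct 2, against 3.803 and 4.06 FPKM in the controls (log2 fold change −0.10 ± 0.059, adjusted p = 0.247), and 2B stood between the controls. PPM1D, the phosphatase that removes damage-induced phosphates from p53, moved by −0.020 in 22Rv1DR and 0.023 in DU145DR.

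CCNG1, cyclin G1, which brings a phosphatase to MDM2, rose in both lines. It read 44.5 and 46.4 FPKM with construct 1 and 50.8 and 47.3 FPKM with construct 2, against 36.3 and 33.4 FPKM in the controls of 22Rv1DR (log2 fold change 0.44 ± 0.049, adjusted p = 0.000267). Its DU145DR levels were 22.4 and 23.3 FPKM with construct 1 and 24.2 and 23.4 FPKM with construct 2, against 19.1 and 19.3 FPKM in the controls (log2 fold change 0.28 ± 0.049, adjusted p = 0.00368). Every siPOM121 library lay above both controls of its line.

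Among the 5 genes that slow division or sense stress, BTG2 was the one that rose in both lines. BTG1 and BTG2 are sister proteins that bring a deadenylase complex to mRNAs. BTG2 read 17.4 and 17.7 FPKM with construct 1 and 16.1 and 18.1 FPKM with construct 2, against 9.57 and 9.91 FPKM in the controls of 22Rv1DR (log2 fold change 0.83 ± 0.069, adjusted p = 6.24e-05). Its DU145DR levels were 4.55 and 4.44 FPKM with construct 1 and 5.197 and 4.505 FPKM with construct 2, against 2.87 and 2.71 FPKM in the controls (log2 fold change 0.74 ± 0.069, adjusted p = 0.00017). No siPOM121 library reached down to a control in either line, although the level differed widely between the lines. BTG1 read 19.7 and 19.1 FPKM with construct 1 and 30.8 and 21.9 FPKM with construct 2, against 13.5 and 12.3 FPKM in the controls of 22Rv1DR (log2 fold change 0.80 ± 0.12, adjusted p = 0.000933), with 4C far above the other libraries. In DU145DR the BTG1 libraries overlapped at 3.07 and 3.12 FPKM with construct 1 and 3.46 and 3.13 FPKM with construct 2, against 3.22 and 3.403 FPKM in the controls (log2 fold change −0.054 ± 0.12, adjusted p = 0.856). The BTG1 call in 22Rv1DR was lost when that line was fitted alone (adjusted p = 0.0615).

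GADD45A, which binds cell-cycle and repair proteins under stress, read 34.5 and 34.3 FPKM with construct 1 and 38.4 and 35.6 FPKM with construct 2, against 20.1 and 19.9 FPKM in the controls of 22Rv1DR (log2 fold change 0.83 ± 0.042, adjusted p = 5.70e-06). In DU145DR it was at 53.96 and 56.9 FPKM with construct 1 and 61.6 and 59.8 FPKM with construct 2, against 55.2 and 55.1 FPKM in the controls (log2 fold change 0.071 ± 0.042, adjusted p = 0.261), and 1B lay below the controls. GADD45A thus rose in the line where its control level was lower, and its libraries overlapped in the other. PLK2 and PLK3 are stress-induced polo-like kinases. PLK2 read 3.07 and 3.198 FPKM with construct 1 and 3.92 and 3.796 FPKM with construct 2, against 2.95 and 2.69 FPKM in the controls of 22Rv1DR (log2 fold change 0.31 ± 0.050, adjusted p = 0.00173), with 4C and 5C highest, and its call was lost on the lower-numbered lane alone (adjusted p = 0.11). It was not called in DU145DR (0.088), and PLK3 was called in neither line (0.12 in 22Rv1DR and −0.16 in DU145DR).

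Of 4 repair genes 3 were called in 22Rv1DR and none in DU145DR, and they did not move in 1 direction. XPC and DDB2, which find damaged bases for nucleotide excision repair, fell there, while RRM2B, the ribonucleotide reductase subunit that supplies nucleotides for repair, rose. XPC read 13.2 and 13.6 FPKM with construct 1 and 10.2 and 12.9 FPKM with construct 2, against 14.6 and 15.2 FPKM in the controls of 22Rv1DR (log2 fold change −0.27 ± 0.081, adjusted p = 0.0295), with 4C lowest. DDB2 read 12.02 and 11.4 FPKM with construct 1 and 11.7 and 11.7 FPKM with construct 2, against 13.03 and 14.1 FPKM in the controls (log2 fold change −0.21 ± 0.060, adjusted p = 0.023). For both genes the siPOM121 libraries lay below the controls. These calls were among the least steady: that of XPC was lost without 4A, 5A, 4B or 5B in turn (adjusted p of 0.0597 to 0.18), with the line alone (0.201) and on the lower-numbered lane (0.0629). That of DDB2 was lost without 5A or 5B (adjusted p of 0.202 and 0.0684), with the line alone (0.0621), with array weights (0.0702), on the lower-numbered lane (0.205) and under quantile normalization or median centring (0.0521 and 0.0587). In DU145DR XPC moved by 0.023 and DDB2 by −0.083.

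RRM2B read 8.22 and 8.28 FPKM with construct 1 and 7.899 and 8.82 FPKM with construct 2, against 7.32 and 6.89 FPKM in the controls of 22Rv1DR (log2 fold change 0.23 ± 0.054, adjusted p = 0.0111), all 4 siPOM121 values above the controls. Without 5A its adjusted p was 0.111, with the line alone 0.0912 and on the lower-numbered lane 0.0804. In DU145DR it read 18.9 and 17.99 FPKM with construct 1 and 18.1 and 17.5 FPKM with construct 2, against 19.02 and 19.3 FPKM in the controls (log2 fold change −0.079 ± 0.054, adjusted p = 0.344). Those siPOM121 values lay just under the controls. POLH, the polymerase that copies past ultraviolet lesions, was called in neither line. It read 4.901 and 4.87 FPKM with construct 1 and 4.23 and 4.96 FPKM with construct 2, against 5.24 and 5.01 FPKM in the controls of 22Rv1DR (log2 fold change −0.12 ± 0.064, adjusted p = 0.195), all siPOM121 values below the controls. In DU145DR POLH read 7.14 and 7.38 FPKM with construct 1 and 7.096 and 6.97 FPKM with construct 2, against 6.34 and 6.33 FPKM in the controls (log2 fold change 0.17 ± 0.064, adjusted p = 0.0799), all siPOM121 values above them.

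The 3 death receptors each followed a course of their own. FAS, the receptor for FAS ligand, read 3.91 and 4.33 FPKM with construct 1 and 4.42 and 4.47 FPKM with construct 2, against 3.26 and 3.43 FPKM in the controls of 22Rv1DR (log2 fold change 0.35 ± 0.056, adjusted p = 0.00154). In DU145DR it stood at 6.18 and 6.28 FPKM with construct 1 and 6.06 and 6.36 FPKM with construct 2, against 5.22 and 5.43 FPKM in the controls (log2 fold change 0.22 ± 0.056, adjusted p = 0.0192). FAS was above both controls in every siPOM121 library of each line. Its DU145DR call was lost without 1A, 2A, 2B or 2C in turn (adjusted p of 0.0516 to 0.146), under quantile normalization (0.091) and on the lower-numbered lane (0.072).

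TNFRSF10A and TNFRSF10B are the receptors for TRAIL, a ligand that can start apoptosis from outside the cell. TNFRSF10B read 37.1 and 38.7 FPKM with construct 1 and 38.5 and 36.7 FPKM with construct 2, against 26.6 and 28.2 FPKM in the controls of 22Rv1DR (log2 fold change 0.46 ± 0.044, adjusted p = 0.000118). Here it rose in every siPOM121 library, well clear of the controls. In DU145DR it read 46.2 and 47.03 FPKM with construct 1 and 48.9 and 51.5 FPKM with construct 2, against 54.9 and 53.1 FPKM in the controls (log2 fold change −0.16 ± 0.044, adjusted p = 0.0287), and every siPOM121 library was below the controls. This small fall lost its call without 1A, 2A, 1B, 2B or 1C in turn (adjusted p of 0.0574 to 0.196), on either lane alone (0.116 and 0.0781) and under quantile normalization (0.0568). TNFRSF10A read 12.8 and 13.04 FPKM with construct 1 and 13.5 and 13.4 FPKM with construct 2, against 17.99 and 17.4 FPKM in the controls of DU145DR (log2 fold change −0.42 ± 0.050, adjusted p = 0.000544), a clear fall with no overlap. Its 22Rv1DR levels overlapped at 4.68 and 5.02 FPKM with construct 1 and 5.22 and 5.59 FPKM with construct 2, against 5.598 and 5.36 FPKM in the controls (log2 fold change −0.098 ± 0.050, adjusted p = 0.159).

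The 12 genes tied to apoptosis also divided. TP53INP1, a nuclear and autophagy cofactor of the p53 response, read 16.4 and 17.2 FPKM with construct 1 and 12.1 and 13.4 FPKM with construct 2, against 9.06 and 8.28 FPKM in the controls of 22Rv1DR (log2 fold change 0.76 ± 0.11, adjusted p = 0.000923). It read 2.55 and 2.58 FPKM with construct 1 and 1.79 and 2.41 FPKM with construct 2, against 1.24 and 1.37 FPKM in the controls of DU145DR (log2 fold change 0.82 ± 0.11, adjusted p = 0.000955). The construct 1 libraries were the higher ones in both lines, and all siPOM121 libraries were above the controls. PERP, a membrane protein of desmosomes, read 35.7 and 36.9 FPKM with construct 1 and 35.97 and 35.6 FPKM with construct 2, against 29.6 and 29.5 FPKM in the controls of DU145DR (log2 fold change 0.29 ± 0.053, adjusted p = 0.00451), with all siPOM121 values above the controls. It also rose in 22Rv1DR, at 21.9 and 22.7 FPKM with construct 1 and 26.3 and 23.3 FPKM with construct 2, against 21.5 and 20.2 FPKM in the controls (log2 fold change 0.17 ± 0.053, adjusted p = 0.0304), where 4B came close to the higher control. The PERP call in 22Rv1DR was lost without 4A, 5A, 4B or 5B in turn (adjusted p of 0.0543 to 0.235), without both construct 2 libraries (0.0739), with the line alone (0.17) and on either lane (0.0541 and 0.0536).

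AEN, a nuclease that degrades DNA in apoptosis, was the member that fell in both lines. It read 9.21 and 9.09 FPKM with construct 1 and 8.35 and 8.92 FPKM with construct 2, against 10.6 and 11.6 FPKM in the controls of 22Rv1DR (log2 fold change −0.32 ± 0.063, adjusted p = 0.00422), and the call there was lost without 5A (adjusted p = 0.0571). In DU145DR it read 9.18 and 8.31 FPKM with construct 1 and 9.86 and 9.42 FPKM with construct 2, against 12.5 and 11.6 FPKM in the controls (log2 fold change −0.40 ± 0.063, adjusted p = 0.00219), with all siPOM121 libraries under the controls as in 22Rv1DR. BAX and APAF1, of the mitochondrial route, fell in 22Rv1DR and were not called in DU145DR. BAX, which opens the outer mitochondrial membrane, read 62.3 and 64.9 FPKM with construct 1 and 51.5 and 62.4 FPKM with construct 2, against 70.5 and 76.3 FPKM in the controls of that line (log2 fold change −0.29 ± 0.074, adjusted p = 0.0146), with 4C lowest. APAF1, the scaffold of the apoptosome, read 6.47 and 6.65 FPKM with construct 1 and 6.41 and 7.75 FPKM with construct 2, against 8.29 and 8.42 FPKM in the controls (log2 fold change −0.30 ± 0.083, adjusted p = 0.0217). In both, every siPOM121 library was below the controls. BAX was no longer called without 5A (adjusted p = 0.139), with the line alone (0.141) and on the lower-numbered lane (0.0515), and APAF1 without 4A, 5A or 4B (0.0951, 0.126 and 0.0593), with the line alone (0.117) and on the higher-numbered lane (0.0711).

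EI24, an endoplasmic reticulum protein of the p53 response, read 41.3 and 41.2 FPKM with construct 1 and 42.7 and 28.5 FPKM with construct 2, against 50.1 and 50.1 FPKM in the controls of 22Rv1DR (log2 fold change −0.40 ± 0.12, adjusted p = 0.0312), so that 5C stood far below the rest. Its call was lost in 12 of 25 alternatives, namely without 4A, 5A, 4B or 5B (adjusted p of 0.0711 to 0.146), without 1A, 2A, 1B or 2B (0.0502 to 0.0504), with the line alone (0.238), on the lower-numbered lane (0.0518) and under quantile normalization or median centring (0.0826 and 0.0841). BBC3, the BH3-only protein PUMA, read 22.04 and 21.5 FPKM with construct 1 and 26.3 and 25.4 FPKM with construct 2, against 17.9 and 20.5 FPKM in the controls of 22Rv1DR (log2 fold change 0.31 ± 0.14, adjusted p = 0.108). Its siPOM121 libraries all lay above the controls, but it did not pass the threshold. BAX, APAF1, EI24 and BBC3 moved by −0.058, 0.085, −0.066 and −0.074 in DU145DR, none of them called.

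CYFIP2 and TP53I11 rose in DU145DR and were not called in 22Rv1DR. CYFIP2, a subunit of the actin-regulating WAVE complex, read 5.54 and 5.93 FPKM with construct 1 and 6.17 and 6.32 FPKM with construct 2, against 4.01 and 3.68 FPKM in the controls of DU145DR (log2 fold change 0.64 ± 0.075, adjusted p = 0.000547). TP53I11, named for its induction by p53, read 15.4 and 15.7 FPKM with construct 1 and 16.2 and 15.4 FPKM with construct 2, against 11.9 and 11.3 FPKM in the controls (log2 fold change 0.43 ± 0.044, adjusted p = 0.000264). Both were clear of their controls. The 22Rv1DR levels of CYFIP2 overlapped at 7.097 and 7.27 FPKM with construct 1 and 6.25 and 7.51 FPKM with construct 2, against 7.02 and 6.901 FPKM in the controls (log2 fold change 0.011 ± 0.075, adjusted p = 0.983). Those of TP53I11 were 7.56 and 7.38 FPKM with construct 1 and 7.56 and 7.81 FPKM with construct 2, against 8.25 and 8.25 FPKM in the controls (log2 fold change −0.12 ± 0.044, adjusted p = 0.0536), all siPOM121 values under the controls.

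TRIAP1, a small protein that limits apoptosis, fell in DU145DR, where it read 23.4 and 23.03 FPKM with construct 1 and 21.5 and 24.6 FPKM with construct 2, against 26.8 and 26.7 FPKM in the controls (log2 fold change −0.21 ± 0.058, adjusted p = 0.0275). The siPOM121 libraries were all lower than the controls. The call was lost without 1A, 2A, 1B, 2B or 1C in turn (adjusted p of 0.0542 to 0.141), with the line alone (0.109) and on the higher-numbered lane (0.285). In 22Rv1DR TRIAP1 overlapped at 46.1 and 47.4 FPKM with construct 1 and 43.1 and 46.99 FPKM with construct 2, against 44.6 and 43.5 FPKM in the controls (log2 fold change 0.057 ± 0.058, adjusted p = 0.499). PHLDA3, which competes with the kinase AKT for membrane lipids, and TP53I3, a quinone reductase, were called in neither line. PHLDA3 moved by 0.047 in 22Rv1DR and 0.066 in DU145DR, and TP53I3 by 0.012 and −0.017.

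Of the 5 genes of metabolism, secretion and RNA processing, SESN1 and ZMAT3 rose in both lines, SESN2 and GDF15 in 22Rv1DR and FDXR in DU145DR. SESN1 and SESN2, sestrins that restrain the growth kinase complex mTORC1, both rose in 22Rv1DR. SESN1 read 8.47 and 8.59 FPKM with construct 1 and 7.005 and 7.95 FPKM with construct 2, against 5.27 and 5.08 FPKM in the controls there (log2 fold change 0.62 ± 0.093, adjusted p = 0.00112). In DU145DR SESN1 was lower throughout, at 3.22 and 3.46 FPKM with construct 1 and 2.52 and 3.21 FPKM with construct 2, against 2.36 and 2.28 FPKM in the controls (log2 fold change 0.41 ± 0.093, adjusted p = 0.0123). All siPOM121 libraries exceeded the controls, with 1C the nearest to them. The DU145DR call was lost without 1A or 2A (adjusted p of 0.0672 and 0.0965), with the line alone (0.0996) and on either lane (0.0596 and 0.0941).

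SESN2 read 11.98 and 11.4 FPKM with construct 1 and 13.9 and 11.7 FPKM with construct 2, against 8.65 and 9.14 FPKM in the controls of 22Rv1DR (log2 fold change 0.46 ± 0.072, adjusted p = 0.00145), clear of the controls, and lost its call with that line fitted alone (adjusted p = 0.0552). In DU145DR the same gene read 6.97 and 6.36 FPKM with construct 1 and 6.96 and 7.11 FPKM with construct 2, against 7.402 and 7.28 FPKM in the controls (log2 fold change −0.10 ± 0.072, adjusted p = 0.363). Those siPOM121 values were slightly under the controls. FDXR, the mitochondrial reductase that feeds electrons to ferredoxin, read 14.2 and 12.6 FPKM with construct 1 and 13.6 and 12.5 FPKM with construct 2, against 8.52 and 8.1 FPKM in the controls of DU145DR (log2 fold change 0.67 ± 0.089, adjusted p = 0.000987). Each siPOM121 library was well above the controls. In 22Rv1DR FDXR overlapped at 16.3 and 16.6 FPKM with construct 1 and 12.8 and 16.2 FPKM with construct 2, against 15.5 and 15.6 FPKM in the controls (log2 fold change −0.015 ± 0.089, adjusted p = 0.972), with 4C lowest.

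GDF15, a secreted stress cytokine, was the most abundant member in 22Rv1DR, at 167 and 167 FPKM with construct 1 and 164 and 169 FPKM with construct 2, against 117 and 119 FPKM in the controls (log2 fold change 0.50 ± 0.036, adjusted p = 3.27e-05). The siPOM121 libraries were close together and all above the controls. GDF15 is listed at 0 in all 6 DU145DR libraries, so no change could be seen there. ZMAT3, an RNA-binding zinc finger protein that acts on splicing, read 3.57 and 3.78 FPKM with construct 1 and 3.97 and 3.51 FPKM with construct 2, against 2.84 and 2.72 FPKM in the controls of 22Rv1DR (log2 fold change 0.41 ± 0.068, adjusted p = 0.00174). The DU145DR levels of ZMAT3 were 3.95 and 4.21 FPKM with construct 1 and 4.13 and 4.07 FPKM with construct 2, against 3.099 and 3.36 FPKM in the controls (log2 fold change 0.34 ± 0.068, adjusted p = 0.00653). It lay above the controls in every siPOM121 library of both lines. In DU145DR its call was lost without 1A (adjusted p = 0.0777) and under quantile normalization (0.102).

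**Figure D2:**
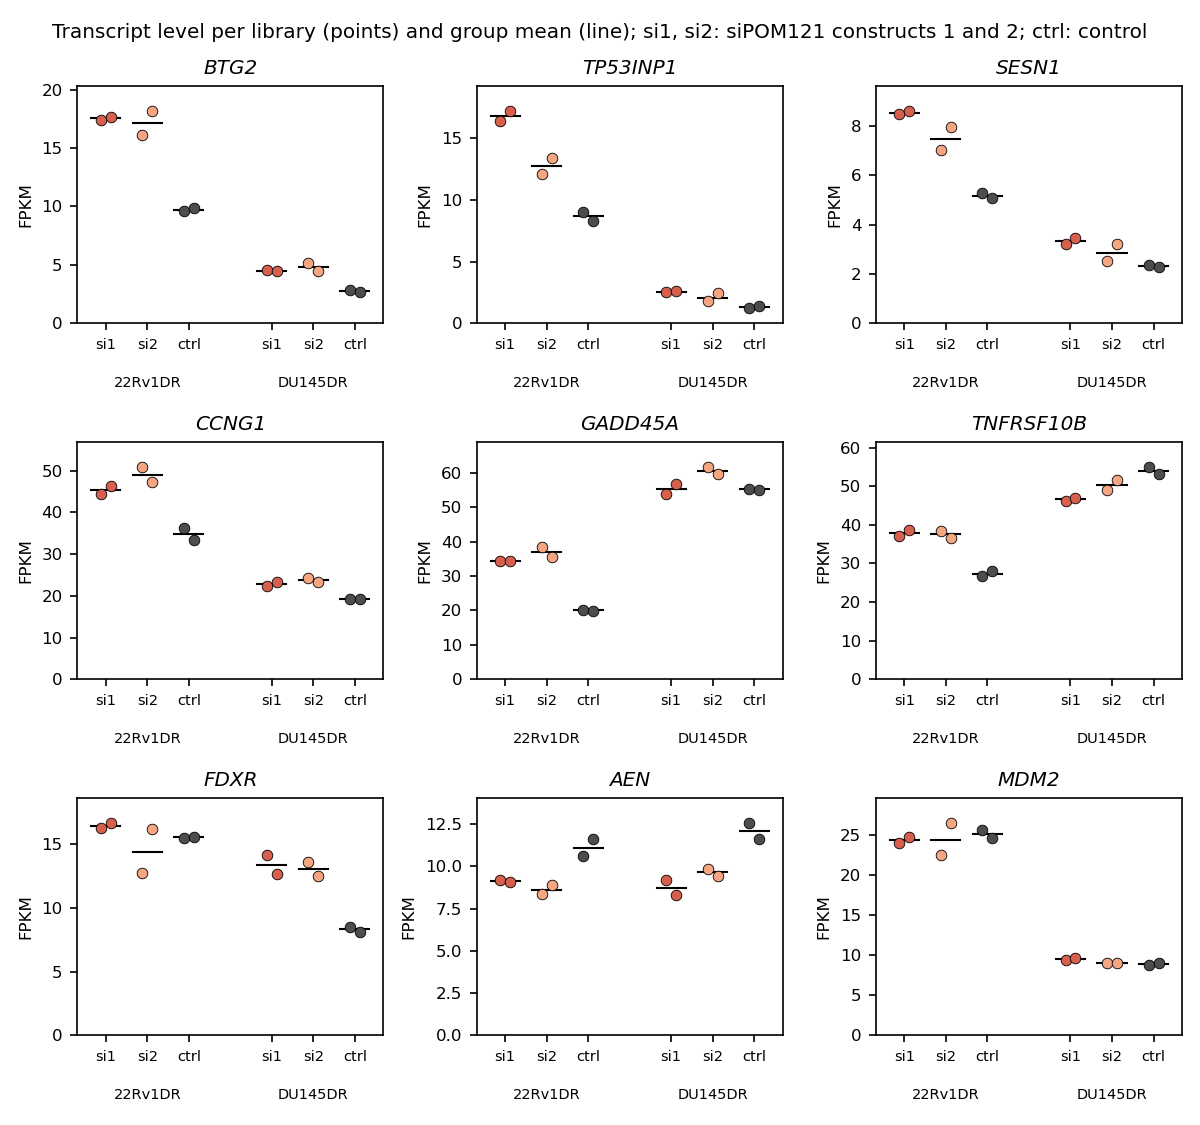
FPKM (linear axis from 0) of 9 p53 target genes in each library (points) with the group mean (line), for siPOM121 construct 1 (si1), construct 2 (si2) and control (ctrl) in 22Rv1DR and DU145DR. BTG2, TP53INP1, SESN1 and CCNG1 stand above their controls in both lines, AEN below in both, GADD45A above in 22Rv1DR, FDXR above in DU145DR, TNFRSF10B above in 22Rv1DR and below in DU145DR, and MDM2 overlaps.

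The test of the difference between the lines, the 22Rv1DR effect minus the DU145DR effect, called 13 members. GDF15 is 1 of them, but it was at the floor in every DU145DR library, so its test only restates its change in 22Rv1DR and is set aside. Of the 32 members measured in both lines, the 22Rv1DR effect was the higher in 7 (21.9%, against 8.93% of all symbols) and the lower in 5 (15.6%, against 15.9%). The shares of all symbols are over the 13622 tested, and symbols at the floor in a line were not taken out of them. Under quantile normalization the test called 17 members with GDF15 counted, 13 higher and 4 lower, in place of 8 and 5. The stress and growth-arrest genes GADD45A (0.76 ± 0.059, adjusted p = 0.00015) and BTG1 (0.85 ± 0.16, adjusted p = 0.00641) and the receptor TNFRSF10B (0.62 ± 0.062, adjusted p = 0.000391) differed toward 22Rv1DR. SESN2 did so too (0.56 ± 0.10, adjusted p = 0.00527). The genes that differed toward DU145DR most were FDXR (−0.68 ± 0.13, adjusted p = 0.00544), CYFIP2 (−0.63 ± 0.11, adjusted p = 0.00384) and TP53I11 (−0.55 ± 0.062, adjusted p = 0.000638). These 7 calls held in every alternative that gave a value.

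The other 5 differences were smaller. RRM2B (0.30 ± 0.077, adjusted p = 0.02), TNFRSF10A (0.33 ± 0.070, adjusted p = 0.0107) and TRIAP1 (0.27 ± 0.081, adjusted p = 0.0407) differed toward 22Rv1DR, although TNFRSF10A rose in neither line and fell in DU145DR. APAF1 (−0.38 ± 0.12, adjusted p = 0.0429) and POLH (−0.29 ± 0.090, adjusted p = 0.0447) differed toward DU145DR. Without 1A the adjusted p was 0.06 for RRM2B, 0.0504 for TNFRSF10A, 0.113 for TRIAP1, 0.155 for APAF1 and 0.117 for POLH. Without 5A it was 0.0902, 0.0522, 0.139, 0.134 and 0.0878 in the same order, and 8 members, GDF15 counted, were called without 1A, as without 5A. RRM2B was also lost without 2A (0.0803) and on the lower-numbered lane (0.0787), and TNFRSF10A on the higher-numbered lane (0.368). TRIAP1, APAF1 and POLH were lost without 2A, 1B, 2B, 1C, 4A, 4B or 5B in turn as well, and POLH without 2C, at adjusted p of 0.0527 to 0.12 for TRIAP1, 0.0705 to 0.106 for APAF1 and 0.0689 to 0.145 for POLH. On the higher-numbered lane the adjusted p was 0.204 for TRIAP1, 0.197 for APAF1 and 0.106 for POLH, and on the lower-numbered lane POLH had 0.072. TRIAP1 also missed the threshold without the trend and robust options (0.0506), and APAF1 under quantile normalization (0.0816). The 7 members that rose in both lines were not among the 13: their difference was 0.088 ± 0.098 for BTG2, −0.067 ± 0.15 for TP53INP1, 0.16 ± 0.070 for CCNG1 and 0.21 ± 0.13 for SESN1. A difference that misses the threshold does not show equal effects.

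Each construct was also set against the controls, which the constructs share. In 22Rv1DR construct 2 called 19 members (14 higher and 5 lower; 57.6% of the list, against 35.1% of all symbols) and construct 1 called 15 (12 and 3; 45.5%, against 27.1%). In DU145DR construct 2 called 11 (9 and 2; 33.3%, against 16.6%) and construct 1 called 13 (10 and 3; 39.4%, against 19.8%). Side by side in 22Rv1DR, BTG2 moved by 0.81 with construct 2 and 0.85 with construct 1, and GADD45A by 0.89 and 0.78. In DU145DR BTG2 moved by 0.80 with construct 2 and 0.69 with construct 1, and FDXR by 0.65 and 0.69. TP53INP1 moved by 0.56 and 0.96 in 22Rv1DR and by 0.67 and 0.97 in DU145DR. SESN1 in DU145DR was called with construct 1 (0.52 ± 0.11, adjusted p = 0.00927) and not with construct 2 (0.29 ± 0.11, adjusted p = 0.0974). Single libraries moved these counts: construct 2 called fewer members in 22Rv1DR without 5A, and in DU145DR without 1A or 1C. Construct 1 called fewer in 22Rv1DR without 4B or 5B, and in DU145DR without 1A, 2A or 2B. Fewer of all symbols were called in each of these fits as well.

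The direct test of construct 2 minus construct 1 called 1 member in 22Rv1DR (11.6% of all symbols were called) and none in DU145DR (0.022%), where limma gave 3 members an unadjusted p under 0.05 and no alternative run called any. In 22Rv1DR 9 members had an unadjusted p under 0.05. The 1 called was PLK2, which the constructs moved by 0.46 and 0.16 (difference 0.30 ± 0.058, adjusted p = 0.0149). It was lost without 4B (adjusted p = 0.11) and without 5B (0.0634). Sizeable differences that missed the threshold were BTG1 (0.42 ± 0.13, adjusted p = 0.072), TP53INP1 (−0.40 ± 0.13, adjusted p = 0.0708) and PHLDA3 (−0.38 ± 0.14, adjusted p = 0.103). The count changed with the library left out, among members and among all symbols: both rose most without 5C and fell without 4B or 5B. Those fits keep 1 library of a construct, and the change is not particular to the members.

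Control cells of the 2 lines held very different levels of these genes. GDF15 read 117 and 119 FPKM in 22Rv1DR and was listed at 0 in DU145DR. PLK2 averaged 2.81 FPKM in 22Rv1DR and 23.3 FPKM in DU145DR (log2 difference −3.05 ± 0.058), and TP53I3 averaged 3.87 and 17.8 FPKM (−2.20 ± 0.092). BBC3 was the reverse, at 19.2 FPKM in 22Rv1DR and 2.84 FPKM in DU145DR (2.75 ± 0.16). TP53INP1 averaged 8.66 and 1.31 FPKM (2.73 ± 0.13) and BTG1 12.9 and 3.31 FPKM (1.96 ± 0.13). Both brakes were higher in 22Rv1DR, MDM2 at 25.2 against 8.89 FPKM (1.503 ± 0.070) and MDM4 at 11.6 against 3.93 FPKM (1.56 ± 0.068). Of the death receptors, all 3 were lower in 22Rv1DR, TNFRSF10A at 5.48 against 17.7 FPKM (−1.69 ± 0.058), TNFRSF10B at 27.4 against 54.0 FPKM (−0.98 ± 0.050) and FAS at 3.34 against 5.32 FPKM (−0.67 ± 0.065).

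In all, 18 members were higher in 22Rv1DR controls (54.5%, against 40.3% of all symbols) and 12 were lower (36.4%, against 42.7%). GDF15 is 1 of the 18. It passed the filter on low values only through 22Rv1DR, so its call as higher there tests nothing. AEN, XPC and PHLDA3 were not called. Most symbols differed between these lines, so the member count says little by itself. Median centring put the median of all symbols at 0.15, in place of −0.020; relative to that shift EI24, POLH and ZMAT3 were no longer called (adjusted p = 0.238, 0.0587 and 0.675). Without single controls EI24 (each of 4, adjusted p of 0.0768 to 0.0874), ZMAT3 (2A or 5A, 0.161 and 0.12) and SESN2 (2A or 5A, 0.0526 and 0.0712) lost their calls. EI24 was also lost under quantile normalization (0.0984) and ZMAT3 on the lower-numbered lane (0.0819).

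**Figure D3:**
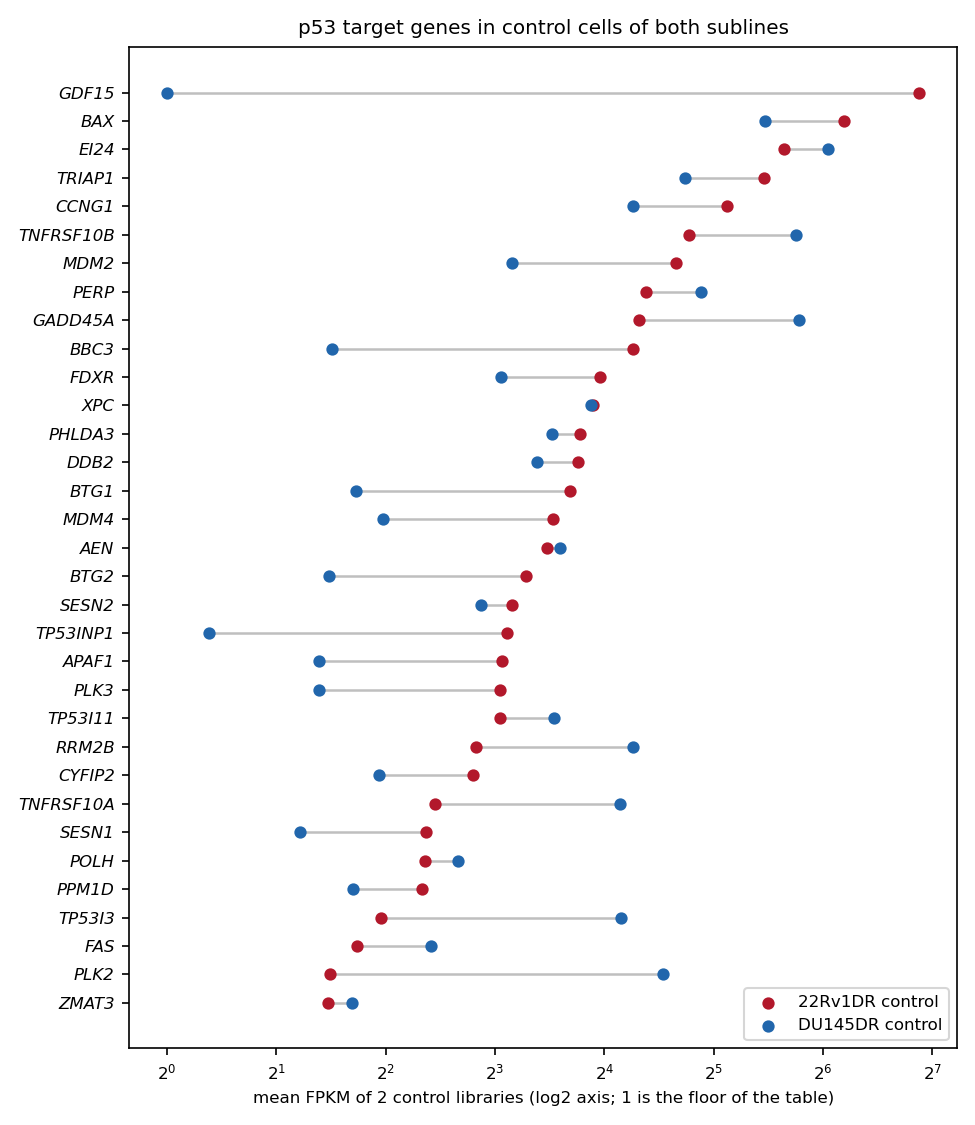
Mean FPKM (log2 axis, 2 libraries each) of the 33 p53 target genes in 22Rv1DR control cells (red) and DU145DR control cells (blue), ordered by the 22Rv1DR level and joined by a line for each gene. GDF15, BBC3, TP53INP1, BTG1, MDM2 and MDM4 lie to the right in 22Rv1DR, and PLK2, TP53I3, TNFRSF10A and GADD45A in DU145DR; the DU145DR point of GDF15 marks the floor.

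Further genes of the pathway were counted from lists written from general knowledge. CDKN1A, the cell-cycle inhibitor p21 and the textbook p53 target, rose in both lines. It read 119 and 121 FPKM with construct 1 and 104 and 107 FPKM with construct 2, against 71.4 and 75.5 FPKM in the controls of 22Rv1DR (log2 fold change 0.62 ± 0.047, adjusted p = 3.93e-05). Its DU145DR levels stood at 20.4 and 19.3 FPKM with construct 1 and 19.8 and 18.9 FPKM with construct 2, against 15.5 and 14.5 FPKM in the controls (log2 fold change 0.39 ± 0.047, adjusted p = 0.000609). It belongs to a list of other p53 targets, of which 17 of the 37 tested rose in 22Rv1DR (45.9%, against 15.2% of all symbols; median 0.14) and 4 fell (10.8%, against 20.4%). In DU145DR 5 rose (13.5%, no more than the 14.5% of all symbols; median 0.089) and 5 fell (13.5%, against 9.37%). In 22Rv1DR PMAIP1 (0.70 ± 0.054), the BH3-only protein NOXA, DDIT4 (0.62 ± 0.056), an mTORC1 inhibitor, and RNF144B (0.52 ± 0.055), a ubiquitin ligase, also rose. In DU145DR CD82 (0.77 ± 0.078), a tetraspanin, TP53TG1 (0.55 ± 0.043), a noncoding RNA, and ALDH4A1 (0.58 ± 0.094), a proline-degrading enzyme, rose. Those that fell there include SERTAD1 (−0.35 ± 0.060), EPHA2 (−0.29 ± 0.074), a receptor tyrosine kinase, TNFRSF10D (−0.22 ± 0.054), a decoy receptor for TRAIL, and PMAIP1 (−0.22 ± 0.054), which rose in 22Rv1DR.

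Genes that p53 lowers through p21 and the DREAM complex, mostly mitotic, fell or were not called: 11 of 13 tested fell in 22Rv1DR and none rose (84.6% fell, against 20.4% of all symbols; median −0.44), and 4 fell and none rose in DU145DR (30.8%, against 9.37%; median −0.11). These counts are for the mean of both constructs, and the constructs differed in 22Rv1DR. Construct 1 lowered 13 of the 13 (median −0.63), where it called 27.1% of all symbols. Construct 2 lowered 7 and raised 1 (median −0.21), where it called 35.1%. The direct test of construct 2 minus construct 1 called 8 there, all higher with construct 2 (61.5%, against 11.6% of all symbols). PLK1, a mitotic kinase, moved by −0.63 ± 0.037 in 22Rv1DR and −0.21 ± 0.037 in DU145DR. Among 24 regulators of p53 tested, 1 rose and 11 fell in 22Rv1DR with the mean of both constructs (4.17% and 45.8%, against 15.2% and 20.4% of all symbols, median −0.17). Construct 1 alone lowered 4 and raised 0 there (16.7% called, against 27.1% of all symbols). Construct 2 alone lowered 9 and raised 1 (41.7%, against 35.1%). Construct 2 minus construct 1 called 2 (8.33%, against 11.6%). In DU145DR 1 rose and 3 fell with the mean of both constructs (4.17% and 12.5%, against 14.5% and 9.37%, median 0.0064). USP7, which removes ubiquitin from MDM2 and p53, fell in both (−0.36 ± 0.041 in 22Rv1DR and −0.20 ± 0.041 in DU145DR), as did the acetyltransferase CREBBP (−0.35 ± 0.055 and −0.18 ± 0.055). p53 protein and its location were not measured.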

How the data were processed

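RNA of 24 samples, which are 12 libraries on 2 lanes each, was sequenced after poly(A) selection with a kit that does not keep strand, per the labels' protocols. Per the submitters' processing notes, TopHat and Cufflinks produced the values, and the builds listed are hg19 and mm10; versions are not given in the sources used here. The deposited values are log2 FPKM: all 294105 values above 0 turn into numbers of 6 significant digits as powers of 2 (tolerance 0.02 units of the last digit), against 3.99% with base e. The smallest is 1.0 FPKM and 51.5% of values are 0, so the authors' table sets values at or under 1 FPKM to 0. Counts are not used here and depth is unknown, so no counting interval is given. The table has 27026 lines, and 605 symbols occur more than once; for these the highest mean decided which line was used, and no member was repeated.

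Each library is the mean of its 2 lanes in log2 units. Testing was limited to symbols whose 2 lanes both exceeded the floor in at least 2 libraries, 13622 in all. limma 3.58.1 in R 4.3.3 fitted 1 mean for each of the 6 groups (6 residual degrees of freedom, trend and robust options), with no pseudocount, since the values were already logs, and no block. The plan had assumed plain FPKM. Tests are two-sided with Benjamini-Hochberg adjustment over all symbols tested, and errors are standard errors of log2 fold changes (2 libraries per construct or control). The fit was tested on simulated data. The deviations of libraries with the same number correlated weakly, between −0.10 and 0.13. They were positive between the constructs in both lines and negative between each construct and control. Whether libraries with the same number were handled together is not settled by this.

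Every member was accounted for. Library values are given for members called in either line or in the line difference, for MDM2 and MDM4, and control means for the 6 with the largest called line difference; the control means of TNFRSF10A, TNFRSF10B and FAS, library values of BBC3, and the other p53 targets named as lower in DU145DR were added after their values were seen. For each further list up to 4 called genes with the smallest p were eligible, and values of some listed genes are not reported here. The members and lists were chosen with earlier results of these data known. Half-sites were searched, as matches at every letter of the consensus, in RefSeq promoter windows of GRCh38.p14, which were not used for expression. The alternatives were other scalings, pseudocounts, filters, lanes and models, and each library left out; leaving out both construct 2 libraries of 22Rv1DR was added after seeing the data.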

Additional observations from a re-analysis of the deposited data

Results flagged for a closer look

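In 12 members measured in both lines the effect of siPOM121 differed between the lines by the interaction test in limma, taken as the 22Rv1DR effect minus the DU145DR effect on the log2 scale. It was positive for BTG1 (0.85), GADD45A (0.76), TNFRSF10B (0.62), SESN2 (0.56), TNFRSF10A (0.33), RRM2B (0.30) and TRIAP1 (0.27). It was negative for FDXR (−0.68), CYFIP2 (−0.63), TP53I11 (−0.55), APAF1 (−0.38) and POLH (−0.29). POM121 itself fell by more in 22Rv1DR (−2.37) than in DU145DR (−0.71), and the part of that in these differences was not tested. Groups of 2 libraries are too small to look for a library that stands apart.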

How the results depend on the processing

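The members called in every one of 25 alternatives were 9 of 20 in 22Rv1DR, 9 of 14 in DU145DR and, of 24 that gave a value, 8 of 13 for the line difference, 1 of the 8 being GDF15, and 26 of 30 between controls. GDF15 is among the 26 as well. The calls in 22Rv1DR numbered 12 with each line fitted alone and 13 on the lower-numbered lane, in place of 20. Over all symbols they numbered 2065 and 3761, in place of 4842. Construct 1 against control in 22Rv1DR gave 7 with each line fitted alone, in place of 15, and construct 2 gave 10 there and 10 with array weights, in place of 19. Construct 2 minus construct 1 in 22Rv1DR called 0 with each line fitted alone, with array weights and on the higher-numbered lane, 2 with log2(FPKM + 1) or median centring and 4 under quantile normalization, in place of 1. In DU145DR the fit of the line alone called 13 members, in place of 14, and 3253 of all symbols, as in the full fit. Fewer libraries enter the fit of either line alone. The cause of these changes was not tested. TNFRSF10A with construct 1 in 22Rv1DR reversed: it was 0.046 (adjusted p = 0.829) on the lower-numbered lane, in place of −0.18 (adjusted p = 0.0492). With each library left out in turn, the count was 12 to 24 for 22Rv1DR, 9 to 15 for DU145DR, 8 to 19 for the line difference and 0 to 14 for construct 2 minus construct 1 in 22Rv1DR. For construct 2 against control it was 12 to 24 in 22Rv1DR and 6 to 14 in DU145DR, and for construct 1 9 to 22 and 7 to 16. Without both construct 2 libraries of 22Rv1DR, 22 members were called in that line and 16 for the line difference. With the library number as a replicate block, 20 members were called in 22Rv1DR, 14 in DU145DR, 10 for the line difference and 14 for construct 1 in 22Rv1DR; TRIAP1, APAF1 and POLH lost their line difference (adjusted p = 0.0553, 0.0544 and 0.0702). Counts for the line difference include GDF15 where it was called. The number of all symbols called changed from fit to fit as well, so a change in these counts is not particular to the members. Each line fitted alone gives no value between lines. Depth is unknown, and levels at or under 1 FPKM, such as GDF15 in DU145DR, cannot show a change.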

Other observations

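Lists of targets of other factors that share genes with the p53 response gave these counts. Of 13 FOXO targets, genes raised when insulin signalling is low, 9 rose and none fell in 22Rv1DR (69.2% rose, against 15.2% of all symbols; median 0.24), and 11 rose and none fell in DU145DR (84.6%, against 14.5%; median 0.31). These counts are for the mean of both constructs, and the constructs differed in 22Rv1DR. Construct 1 raised 4 and lowered 0 there (30.8%, against 27.1% of all symbols called). Construct 2 raised 8 and lowered 1 (69.2% called, against 35.1%). Construct 2 minus construct 1 called 4 (30.8%, against 11.6%). The FOXO targets include BCL6, a repressor (0.64 ± 0.071 in 22Rv1DR and 0.54 ± 0.071 in DU145DR), and CITED2, a coactivator partner (0.50 ± 0.052 and 0.39 ± 0.052). Of 14 ATF4 and CHOP targets, genes of the amino acid and unfolded protein response, 6 rose and 1 fell in 22Rv1DR (42.9% and 7.14%, against 15.2% and 20.4% of all symbols; median 0.36). In DU145DR 1 rose and 4 fell (7.14% and 28.6%, against 14.5% and 9.37%; median −0.11). ATF3, a stress-induced repressor, rose by 1.21 ± 0.15 in 22Rv1DR, and TRIB3, a pseudokinase, moved by −0.49 ± 0.049 in DU145DR. The ATF4 list holds SESN2 and DDIT4, which are also p53 targets.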
